A study of Mus musculus with 4 samples.

Results

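The glucocorticoid receptor gene Nr3c1 and 9 genes tied to its action were followed in the liver of diet-induced obese (DIO) mice given GALP (galanin-like peptide, a hypothalamic neuropeptide) through the nose. The 10 genes were Nr3c1, Hsd11b1, Fkbp5, Tsc22d3, Sgk1, Zbtb16, Klf9, Map3k6, Errfi1 and Dusp1, and all array probes carrying one of these gene names were taken. Probes were found for 9 of the 10 genes, 20 probes of the 41174 on the array, and Zbtb16 had none under that name. The genes were selected by their known link to glucocorticoids and from GALP over control ratios of these same arrays, so those ratios, and the calls made from them, are given below as a description and support nothing on their own.

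Male C57BL/6J mice, 8 weeks old at purchase, ate a high-fat diet for 14 weeks, weighed at least 40 g and were acclimatized for 2 weeks by the labels. The methods of the study give a different length of acclimatization. GALP-treated mice received porcine GALP (1 nmol in saline with 5% α-cyclodextrin) in 2 µL once daily for 11 days. Control mice received saline by the same route, and the paper names no cyclodextrin for them. All groups shared the obesity and the dosing schedule, but an effect of cyclodextrin cannot be told apart from that of GALP. Livers of 4 treated mice that lost more weight made the greater weight loss pool, those of 4 that lost less made the less weight loss pool, and those of 8 control mice made the control pool. Each GALP pool met the control pool on 2 dual-colour arrays with the dyes exchanged (a dye swap), giving 4 arrays on 1 slide.

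Both arrays of a pool held identical RNA extracts and count as 1 value, the average. A mean ± SD is over n = 2 GALP pools, and the single control pool adds no spread of its own. Nothing in the labels describes the spread between single mice. Values are log2 ratios of GALP over control unless stated, where 1 is a doubling. Each ratio also had a p-value from the error model of the scanning software, which compares the extracts on 1 array. A probe was called when this p-value was under 0.01 and the direction the same on all 4 arrays. Each of the 2 pools also had to exceed a fold of 1.5 or fall below 0.75. The p-value threshold and the search for changes common to both pools are in the study's methods, and the fold limits in its results. Asking for all 4 arrays was a stricter reading chosen here, so the calls are not the study's own gene lists. In pooled liver, fewer cells of a type and less RNA per cell cannot be told apart.

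Glucocorticoids are adrenal steroids that enter cells and bind the receptor encoded by Nr3c1, which is held in the cytosol by heat shock chaperones and moves to the nucleus after binding. There it binds DNA at glucocorticoid response elements and raises or lowers the transcription of target genes. In the liver, this receptor is known for its control of gluconeogenesis and amino acid breakdown, and Hsd11b1 adds to its ligand by regenerating active steroid from the inactive form.

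Probe sequences of Fkbp5, Map3k6 and Dusp1, the members with the largest ratios in size, are shown first. Each value is a measurement of a short stretch of the transcript. Positions are on mm9, as the files give them, and no exon or UTR was assigned, because no annotation of that build was used here. The 60-base Fkbp5 probe A_52_P481493 (chr17:28574995-28575054, minus strand) is shown whole, and the first 30 of 60 bases are shown for the 3 other probes. These are Fkbp5 A_51_P383689 (chr17:28536878-28536937, minus strand), Map3k6 A_52_P222775 (chr4:132808672-132808731, plus strand) and Dusp1 A_51_P430900, for which the files place 11 bases (chr17:26642526-26642536, minus strand). No bases are capitalized, as no part of a probe is singled out.
Fkbp5 A_52_P481493: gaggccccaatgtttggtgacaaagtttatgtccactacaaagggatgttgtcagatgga
Fkbp5 A_51_P383689: ggcattgaattagggcaaatcttaaatagt
Map3k6 A_52_P222775: acagatacggatggatgaacagagaagaca
Dusp1 A_51_P430900: gcgtatgagagtttttacctttatttattt

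The stretch of A_52_P481493 has a forward reading frame without a stop, whereas A_51_P383689 has stops in all 3 forward frames, and the 2 probes lie 38.1 kb apart on the genome.

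The target gene Fkbp5 and the kinase gene Map3k6 were called higher, at 2.34-fold and 2.19-fold of the control over both GALP pools (n = 2). Dusp1 had a fold of 0.691 without being called, and the receptor gene and the remaining members lay close to the control. The rule called 2 of the 20 member probes, both higher (1 of Fkbp5 and 1 of Map3k6), and none lower. Over all 41037 probes with a value on all arrays, it called 24 higher (0.0585%) and 54 lower (0.132%). When each gene was represented by its brightest probe, the shares were 0.0754% of 26518 genes higher and 0.147% lower. The median over the 20 member probes was -0.03, and over all probes it was 0. As background over the whole array, limma with Benjamini-Hochberg adjustment called 0% of the probes, while before adjustment 2049 probes had a p under 0.05 with a higher level and 2710 with a lower one. That fit had 1 residual degree of freedom, and nothing about the members is read from it.

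**Figure D1:**
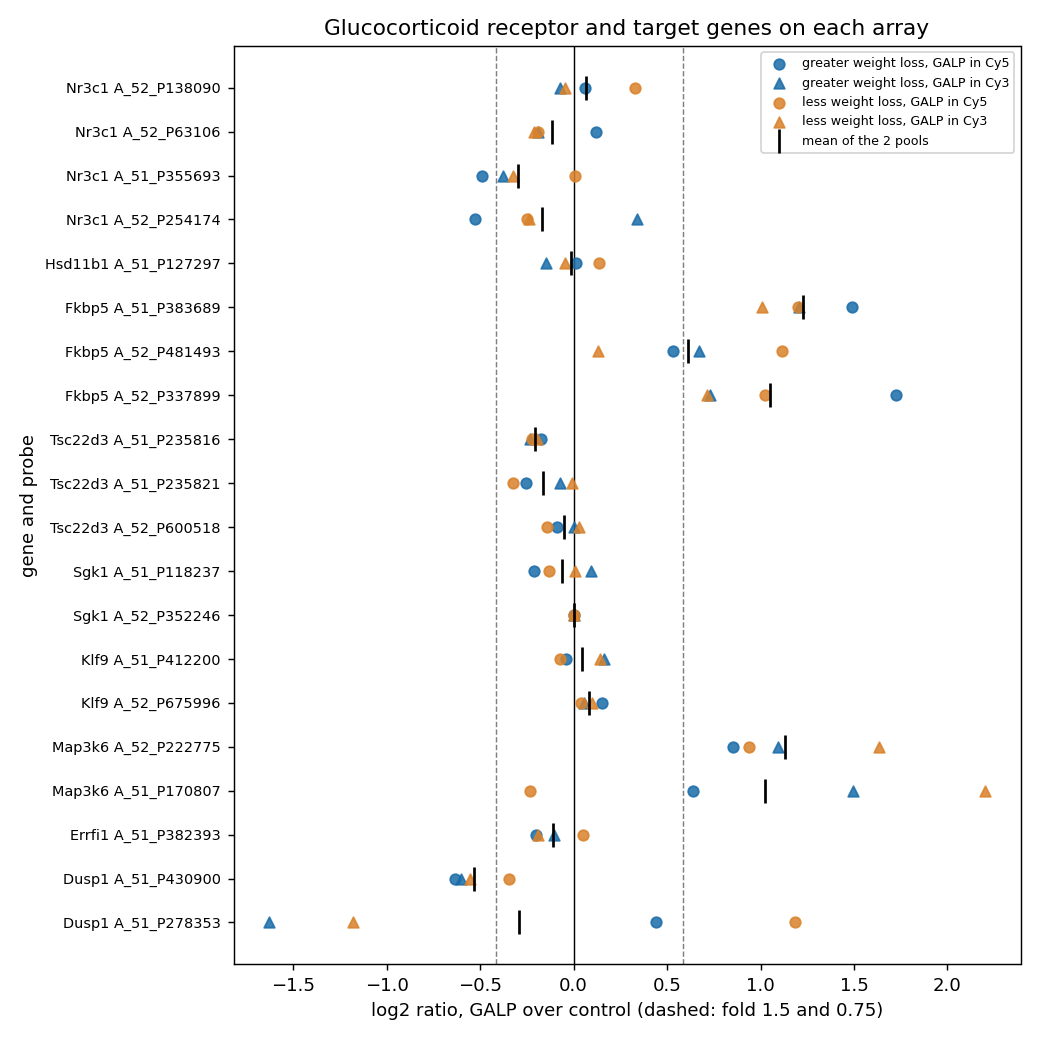
Log2 ratio of GALP over control (x axis) for each of the 20 member probes (rows) on each of the 4 arrays, with colour for the pool and shape for the dye of GALP; the black tick is the mean of the 2 pools and dashed lines mark folds of 1.5 and 0.75. The 3 Fkbp5 probes and Map3k6 A_52_P222775 lie right of 0 on all arrays, Dusp1 A_51_P430900 lies left of 0 on all arrays, and most other probes sit around 0.

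Nr3c1 encodes the receptor itself and was read by 4 probes. At the brightest, A_52_P138090, the ratios were 0.06 and -0.07 on the arrays of the greater weight loss pool and 0.33 and -0.04 on those of the less weight loss pool, with GALP in Cy5 given first here and in all later lists. The mean was 0.07 ± 0.10 (SD, n = 2 pools), and the arrays fell on both sides of 0. A_52_P63106 gave -0.12 ± 0.12, and its Cy5 array of the greater weight loss pool alone was above 0.

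The 2 other Nr3c1 probes were dim. A_51_P355693 gave -0.49, -0.38, 0.01 and -0.32, for a mean of -0.30 ± 0.20. A_52_P254174 gave -0.53, 0.34, -0.25 and -0.24, for a mean of -0.17 ± 0.10. Among its GALP channels 3 of 4 were well above background, and among its control channels 2 of 4. The means of the 4 probes spanned -0.30 to 0.07, and none passed the software's p-value threshold on any array.

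Hsd11b1, the reductase that regenerates active glucocorticoid inside the hepatocyte, had 1 probe (A_51_P127297, chr1:195048169-195048228). Its ratios were 0.01, -0.15, 0.13 and -0.05, a mean of -0.01 ± 0.08 (SD, n = 2 pools). The arrays lay on both sides of 0. Its signal was brighter than 99.7% of all probes on these arrays.

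Fkbp5 encodes a co-chaperone of the receptor complex that lowers hormone binding and is itself a classical target of the receptor. At the brightest probe, A_51_P383689, the log2 processed signal in the control channels was 7.68, 7.76, 7.93 and 8.05. In the GALP channels it was 9.17, 8.97, 9.13 and 9.06. The control channels are the same pool measured on 4 arrays, so they show no spread between mice. The ratios were 1.49, 1.21, 1.20 and 1.01, and the mean was 1.23 ± 0.17 (SD, n = 2 pools), a 2.34-fold higher level. The software's p-value passed on 4 of 4 arrays and the probe was called.

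The other 2 Fkbp5 probes pointed the same way with smaller or less well measured ratios. A_52_P481493, the probe shown whole above, gave 0.53, 0.67, 1.12 and 0.13, for a mean of 0.61 ± 0.02. This probe was well above background in all channels and had folds of 1.52 and 1.54 in the pools, just inside the fold limit, but its p-value passed on only 2 of 4 arrays. A_52_P337899 (chr17:28537593-28537652) gave 1.72, 0.73, 1.03 and 0.71, for a mean of 1.05 ± 0.25. For that probe only 1 of 4 control channels was well above background. In the greater weight loss pool it was not on either array, and GALP was at least 1.52-fold higher there. The brightest probe exceeded the distant one by 0.61, and why they differ was not tested.

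The Fkbp5 ratios were smaller under another background correction and normalization, which were changed together. With normexp correction (offset 50) and loess, the mean was 0.60 at A_51_P383689, 0.14 at A_52_P481493 and 0.10 at A_52_P337899, and the rule called no member probe.

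Tsc22d3 encodes GILZ, a leucine zipper protein through which glucocorticoids dampen inflammatory signalling. Its 3 probes lie within 0.684 kb of one another. A_51_P235816 gave -0.17, -0.23, -0.22 and -0.20, a mean of -0.21. The 4 arrays differed little from each other, and the pool means were -0.20 in the greater weight loss pool and -0.21 in the other. A_51_P235821 had a mean of -0.16, also below 0 on all arrays, and A_52_P600518 had a mean of -0.05 with arrays on both sides of 0. No Tsc22d3 probe passed the p-value threshold on any array.

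Dusp1 encodes a phosphatase that switches off MAP kinases and is another anti-inflammatory target of the receptor. At A_51_P430900 the control signal was 11.46, 11.25, 11.48 and 11.31 and the GALP signal 10.83, 10.65, 11.14 and 10.76 (log2 processed signal). The ratios were -0.63, -0.60, -0.35 and -0.55, with a mean of -0.53 ± 0.12 (SD, n = 2 pools), a fold of 0.691. The pool folds were 0.652 and 0.732, the latter just inside the limit of 0.75. The p-value passed on 3 of 4 arrays, so the rule did not call it.

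The second probe named Dusp1, A_51_P278353 (chr17:26698386-26698444), lies 55.9 kb from the first and has a GC content of 75%, against a median of 40% over all probes. Its ratios were 0.44, -1.63, 1.19 and -1.18. The sign followed the dye, above 0 with GALP in Cy5 and below 0 with GALP in Cy3, in both pools. Only 2 of 4 GALP channels and 1 of 4 control channels were well above background there.

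**Figure D2:**
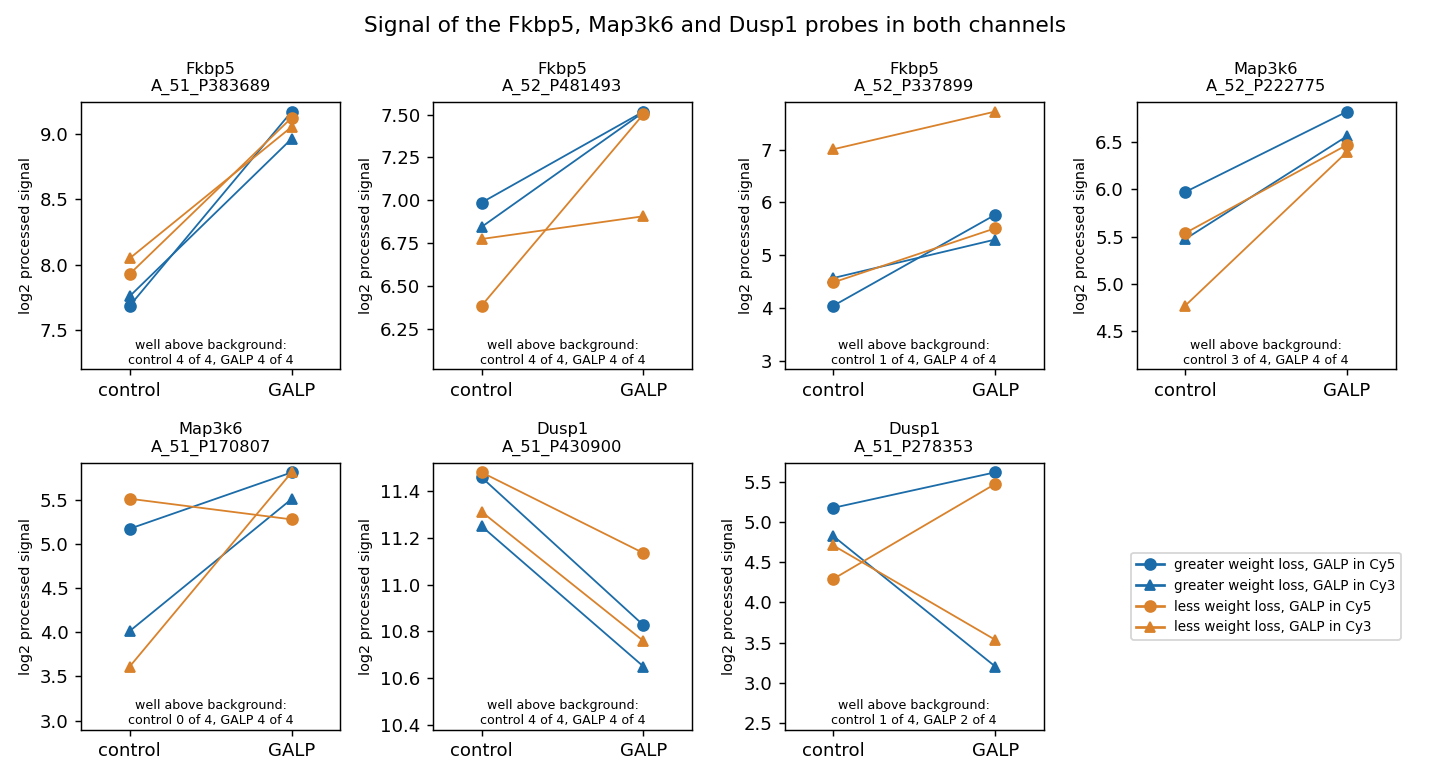
Log2 processed signal (y axis, scaled per panel) of the 7 probes of Fkbp5, Map3k6 and Dusp1 in the control and GALP channels of each array, with lines joining the 2 channels of 1 array, colour for the pool and shape for the dye of GALP. Every line rises at the 3 Fkbp5 probes and at Map3k6 A_52_P222775, every line falls at Dusp1 A_51_P430900, and the lines of Dusp1 A_51_P278353 split by dye.

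Sgk1 encodes a kinase that regulates ion channels and transporters and is induced by glucocorticoids and mineralocorticoids. At A_51_P118237 (chr10:21719390-21719449) the ratios were -0.21, 0.09, -0.13 and 0.01, a mean of -0.06. The sign again followed the dye, and both pool means were -0.06. The second probe, A_52_P352246, lies 101 kb away and was not well above background in any channel, and all of its ratios were set to 0 by the software.

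Map3k6 encodes a kinase at the top of a stress-activated MAP kinase cascade. At A_52_P222775 the control signal was 5.97, 5.47, 5.54 and 4.76 and the GALP signal 6.83, 6.57, 6.47 and 6.40. The ratios were 0.85, 1.09, 0.94 and 1.63, with a mean of 1.13 ± 0.22 (SD, n = 2 pools), a 2.19-fold higher level, and the probe was called with the p-value passing on 4 of 4 arrays. The probe was dim, brighter than 63.9% of probes, and 3 of its 4 control channels were well above background. With normexp correction and loess the mean was 0.16.

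The second Map3k6 probe, A_51_P170807 (chr4:132808784-132808843), lies 0.112 kb from the first. It gave 0.64, 1.5, -0.23 and 2.20, so 1 array lay below 0. The control was not well above background on any array there, and GALP was at least 1.40-fold higher over both pools. That limit was 1.66-fold in the greater weight loss pool and 1.18-fold in the less weight loss pool, which held the array below 0.

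Errfi1 encodes an adaptor that restrains epidermal growth factor receptor signalling. Its single probe (A_51_P382393, chr4:150242526-150242585) gave -0.20, -0.10, 0.05 and -0.19, a mean of -0.11 ± 0.06. It was brighter than 99.6% of all probes, and 3 of 4 arrays lay below 0.

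Klf9 encodes a zinc finger transcription factor that responds to glucocorticoids and thyroid hormone. A_51_P412200 (chr19:23240138-23240197) gave -0.04, 0.16, -0.07 and 0.14, a mean of 0.05 ± 0.02. A_52_P675996 gave 0.15, 0.05, 0.04 and 0.10, a mean of 0.09 ± 0.02, above 0 on all arrays but with no p-value under the threshold.

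Across the members, 5 probes were above 0 on all 4 arrays (3 of Fkbp5, 1 of Map3k6 and 1 of Klf9), against 5.33% of all probes. Below 0 on all 4 arrays were 3 probes (2 of Tsc22d3 and 1 of Dusp1), against 6.63% of all probes. The shares over all probes include dim probes whose ratios the software set to 0. At the brightest probe of genes with signal in at least 1 channel they were 9.92% above 0 and 10.7% below 0. These ratios took part in choosing the genes, and nothing is read from the counts. In all 8 channels, 13 of the 20 probes were well above background.

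The pools with greater and less weight loss were then set side by side. They share the control pool, with 1 pool per group, so no test was possible. At the brightest probe of each gene, the greater minus less difference was 0.25 for Fkbp5, -0.31 for Map3k6, -0.17 for Dusp1, -0.15 for Nr3c1 and -0.11 for Hsd11b1. It was between -0.09 and 0.02 for Tsc22d3, Sgk1, Klf9 and Errfi1. Among the 14444 probes well above background in every channel, the median size of this difference was 0.10 and the 95th percentile 0.42. The 2 dye orientations of 1 pool differed by a median of 0.20 over the same probes. None of the brightest probes exceeded that 95th percentile.

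**Figure D3:**
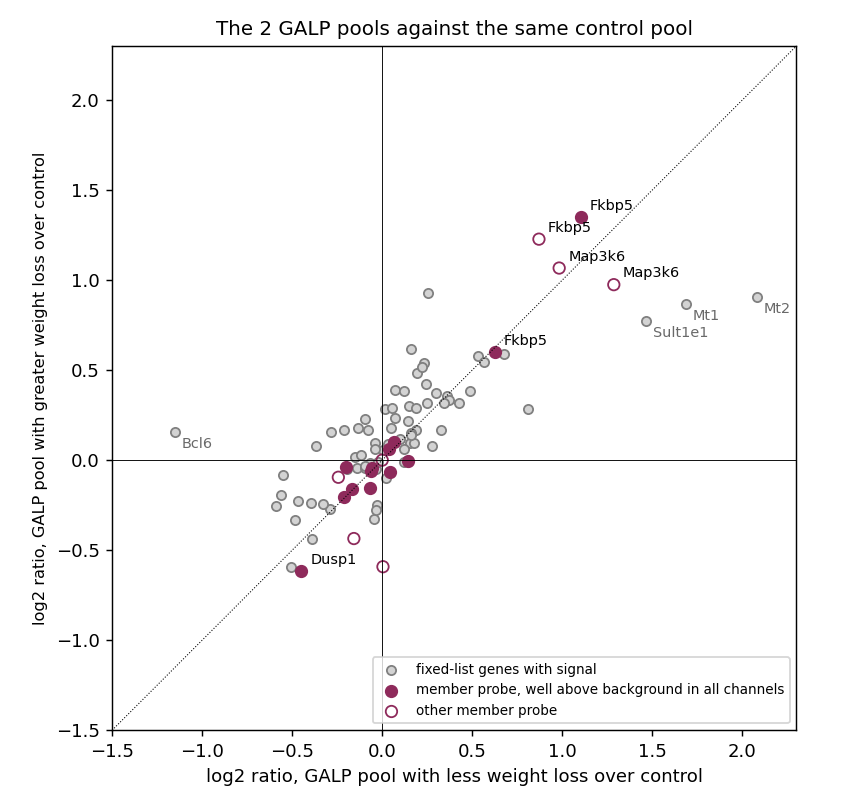
Log2 ratio over control of the pool with less weight loss (x axis) against that of the pool with greater weight loss (y axis) for the 20 member probes (purple, open where a channel was not well above background) and the fixed-list genes with signal (grey); the dotted line marks equal values. The Fkbp5, Map3k6 and Dusp1 probes with the largest ratios lie near the line, while Mt1, Mt2 and Sult1e1 lie below it and Bcl6 lies far to its left.

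Other genes of the pathway were taken from 4 fixed lists of 78 genes in all, of which 76 had a probe. The lists were chosen with earlier results of these data known, so the calls in them are a description. The rule called 3 of them higher (Mt1, Mt2 and Sult1e1) and none lower. Over all genes it called 0.0754% higher and 0.147% lower. Medians below are over genes with signal in at least 1 channel, beside 0.01 over 16320 such genes. Shares of those genes with all 4 arrays on the same side were 9.92% above 0 and 10.7% below 0.

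The list of receptor partners, steroid supply and chaperones had 19 of 21 genes with signal and a median of 0.02, with 5 genes above 0 and 3 below 0 on all arrays and none called. Serpina6, the plasma carrier of glucocorticoids made in the liver, gave 0.35, 0.36, 0.31 and 0.41, a mean of 0.36 with 4 similar arrays. Hsp90ab1, a chaperone of the unbound receptor, gave 0.19 and 0.26 in the greater weight loss pool and -0.15 and -0.04 in the other, so the pools lay on opposite sides of 0. Fkbp4, the co-chaperone that competes with the Fkbp5 product, had a mean of -0.02 ± 0.27. Nr3c2, the mineralocorticoid receptor, and Hsd11b2, which inactivates glucocorticoids, were not well above background in any channel.

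Metabolic targets in liver had 18 of 20 genes with signal and a median of 0.16, with 9 genes above 0 and 3 below 0 on all arrays. The metal-binding metallothionein genes were the highest. Mt2 gave 0.99, 0.82, 2.06 and 2.10, a mean of 1.49 ± 0.83, and Mt1 gave 0.88, 0.86, 1.72 and 1.65, a mean of 1.28 ± 0.58. Sult1e1, which sulfates oestrogens, gave 0.67, 0.88, 1.57 and 1.36, a mean of 1.12 ± 0.49. All 3 were higher in the pool with less weight loss than in the other. Metals also induce the metallothioneins.

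The best known metabolic targets with a probe had means between -0.41 and 0.18. Tat, which starts tyrosine breakdown, gave -0.14, -0.24, -0.43 and -0.69, a mean of -0.38 ± 0.26. G6pc, the last enzyme of glucose release, gave -0.55, -0.33, -0.39 and -0.38, a mean of -0.41 ± 0.03. Both were below 0 on all arrays and neither was called. Tdo2, which opens the tryptophan ring, had a mean of 0.18 ± 0.05, and Igfbp1, a secreted binding protein of insulin-like growth factors, had a mean of 0.11 ± 0.09. Pck1 had no probe under that name.

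Regulatory and immune targets had 19 of 20 genes with signal and a median of 0.18, with 6 above 0 and 3 below 0 on all arrays and none called. The clock gene Per1 gave 0.20, 0.40, -0.19 and 0.49, a mean of 0.23 ± 0.11. Bcl6, a transcriptional repressor named here after its values were seen, gave 0.27 and 0.05 in the greater weight loss pool and -0.98 and -1.32 in the other, on opposite sides of 0. Relatives of the members, such as other FK506-binding proteins, SGK kinases and TSC22 family genes, had 18 of 20 genes with signal and a median of 0.05, with 6 above 0 and 2 below 0 on all arrays and none called.

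**Figure D4:**
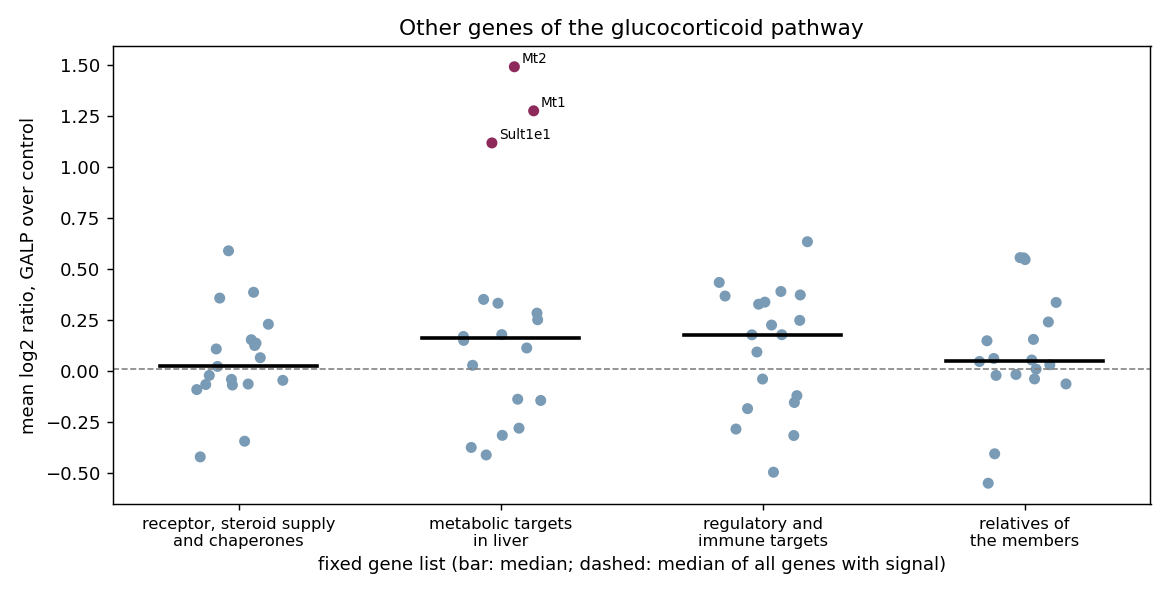
Mean log2 ratio of GALP over control (y axis) of each gene with signal in the 4 fixed lists, at the probe with the highest mean signal; the bar is the list median and the dashed line the median of all genes with signal. Purple points were called, and these were Mt1, Mt2 and Sult1e1 among the metabolic targets.

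The genes whose 4 ratios lay nearest to those of Fkbp5 A_51_P383689 were sought by root mean square distance among 14443 probes well above background in every channel. They were Cyp2b10, a drug-metabolizing cytochrome (distance 0.25, mean 1.02), Acot3, an acyl-CoA thioesterase (0.32, mean 1.07), and Upp2, a uridine phosphorylase (0.34, mean 0.90). Acot3 and Upp2 were called, and Cyp2b10 passed the p-value threshold on 3 of 4 arrays. The search picked genes by these same ratios, so their size and direction follow from it, and shared regulation was not tested.

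Markers of cell types were read beside these values. Hepatocyte markers (4 of 5 with a probe) had means between -0.14 and 0.05. The 5 Kupffer cell and macrophage markers with a probe had a median of 0.27, and 3 of them were above 0 on all arrays. Marco was called (1.07, 1.02, 0.81 and 0.58), and the means of the others were 0.43 for Adgre1, 0.27 for Csf1r, 0.14 for Cd5l and 0.00 for Clec4f. The 4 sinusoidal endothelial markers had a median of 0.10. Lyve1 was called at a mean of 0.74, and the means of the others were 0.13 for Stab2, 0.08 for Pecam1 and -0.12 for Clec4g. Of the 3 adrenal markers with a probe, Cyp11b2 and Cyp21a1 were not well above background in any channel. The third, Star, which moves cholesterol into mitochondria, gave -1.07, -0.99, -1.19 and -0.61, a mean of -0.96. It was below 0 on all arrays and was not called, and 3 of 4 control channels but 1 of 4 GALP channels were well above background. The skeletal muscle genes Acta1, Ckm, Mylpf and Tnnt3 had a median of 0.33 in the greater weight loss pool and -2.18 in the other. Medians over markers with signal were 0.15 for stellate cells, -0.13 for lymphocytes, -0.28 for bile duct and 0.06 for adipocytes. None of the markers in those lists was called. The part of these cell types in the values of the members was not tested.

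Promoters were searched for the glucocorticoid response element, AGAACA and TGTTCT with any 3 bases between them, in RefSeq windows (GRCm38.p6) from 250 bases before to 50 after each start site. Windows of 8 member genes were read, 16 in all, and Nr3c1 and Zbtb16 were not among them. The element, which reads the same on both strands, was found in 1 of the 16 windows and in 3 of all 32851 (0.00913%). That window belongs to Sgk1, whose ratio lay close to 0, and none of the windows of Fkbp5, Map3k6 or Dusp1 held the element. The single 6-base site TGTTCT or AGAACA, which is part of the element, occurred in 4 of the 16 windows and in 19.0% of all. Those 4 windows belong to Sgk1 and Tsc22d3 only, and the window with the full element is among them. The 250 bases before that Sgk1 start (chr10:21993640-21993889, plus strand) are shown with the element, which begins 189 bases before the start, in capitals.
Sgk1 promoter: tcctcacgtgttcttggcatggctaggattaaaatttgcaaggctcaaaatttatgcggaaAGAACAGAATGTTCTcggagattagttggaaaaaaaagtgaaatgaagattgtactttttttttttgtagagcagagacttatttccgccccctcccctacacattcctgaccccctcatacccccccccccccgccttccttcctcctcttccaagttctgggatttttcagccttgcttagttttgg

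A match in these letters is a description and not a binding site. Receptor binding was not measured, and known elements of many targets lie outside such windows.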

How the data were processed

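The authors labelled liver RNA pools with Cy3 and Cy5, hybridised them to Agilent arrays (4 arrays of 43379 spots on 1 slide), and scanned them. Background was subtracted and dyes were balanced by Feature Extraction (12.0.3.1 per the file headers), which gave a processed intensity per channel. Each spot's deposited log10 ratio is processed Cy5 over Cy3, and its deposited p-value comes from the software's error model. The deposited series table holds log10 ratios of the same spots, already turned to GALP over control. The labels name Feature Extraction 11.0.1.1 instead.

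Every log10 ratio was put on the log2 scale as GALP over control, outlier spots were left out and spots of a probe averaged, which left 41037 probes with a value on all arrays. The 2 arrays of a pool, a technical dye swap, were averaged. Although the control channel carries the weight loss label of its array, the paper describes 1 control pool, which was used as 1 sample. limma 3.58.1 (R 4.3.3) tested the 2 pool ratios against 0 (lmFit, eBayes). Where 1 side was not well above background on any array of a pool, a limit was computed from processed signals after Aquantile scaling between arrays, setting the dim side at the higher of its own signal and the lowest signal well above background. Python 3.11.15 was used for the rest. Precision is limited by the small number of arrays.

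The members and lists were chosen with earlier results of these data known. Genes named from the lists were those called, at most 6 per list, with a fixed set that includes Tat, Pck1 and G6pc, and the 3 genes nearest to Fkbp5. Alternatives were normexp with loess, median centring, the series table, no outlier filter, 1 dye orientation, 1 pool, 2 other p-value rules, a filter on dim probes, an intensity trend and 1 mismatch in the element. Of the 20 member probes, 16 had an accession found in RefSeq, all under the same symbol.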

Additional observations from a re-analysis of the deposited data

Results flagged for a closer look

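Each of the following genes lay on one side of 0 on both arrays of the greater weight loss pool and on the other side on both arrays of the less weight loss pool, and the difference was not tested, with 1 pool per group. The greater minus less difference was 1.31 (log2) for Bcl6, 0.44 for Hsp90aa1 and 0.33 for Hsp90ab1 among the glucocorticoid lists. It was 0.32 for the hepatocyte marker Apoa1, 0.63 for the adipocyte marker Adipoq, and 2.98 and 3.21 for the skeletal muscle markers Acta1 and Tnnt3. The muscle marker Ckm (2.25), the stellate cell marker Des (1.31) and Tsc22d2 (0.25) met the same description. They were not well above background in every channel. The other hepatocyte markers Alb, Ttr and Fgb differed by -0.13, -0.02 and -0.04. Of the other adipocyte markers, Cfd differed by -0.15, Plin1 by 1.02 with a dim signal, and Lep was not well above background in any channel. No member probe lay on opposite sides of 0 in this way.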

How the results depend on the processing

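Median centring, the series table, no outlier filter and a filter on dim probes left 2 member probes called, and the counts over all probes were the same as well. With normexp and loess the rule called 0 member probes, and over all probes 9 higher and 26 lower. With 1 dye orientation or 1 pool it called 2 to 4 member probes, 3 to 6 list genes higher and 0 to 1 lower, and over all probes 96 to 140 higher and 140 to 163 lower. When the p-value had to pass on only 1 array in each pool, the rule called 5 member probes (3 of Fkbp5, 1 of Map3k6 and 1 of Dusp1), 1 list gene lower, and over all probes 53 higher and 167 lower. With no p-value it called 5 member probes, 1 list gene lower, and over all probes 154 higher and 360 lower. limma called 0 probes higher and 1 lower among the 15712 probes left by the filter on dim probes. With 1 mismatch allowed, 1 member window held the element. Each ratio already pairs GALP with control on 1 array. Pairing across the GALP pools was not possible, since they hold different mice, and the labels carry no replicate numbers.

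With GALP in Cy5 only, 3 of 20 member ratios changed sign, and with GALP in Cy3 only 4 did, none of them a called probe. The control signal of Map3k6 and of 1 Fkbp5 probe was near background. The cause of the differences between settings was not tested.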
